A study of Mus musculus with 12 samples.

Results

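Type I interferon-stimulated genes are the genes that cells switch on when interferon alpha or beta reaches them. A list of 40 of them was followed through RNA sequencing of mouse bone marrow-derived macrophages (BMDMs). The genes were taken by symbol from a fixed list, which was drawn up with earlier results of these data known, and all 40 are among the 55335 genes of the table and among the 12622 genes tested. The 12 libraries make 4 groups of 3, namely wild-type control, wild-type with LPS+ATP, Nlrp3-/- control and Nlrp3-/- with LPS+ATP. BMDMs are macrophages grown from marrow, here for 7 days with the growth factor M-CSF, and the C57BL/6 mice were 8 weeks old. Lipopolysaccharide (LPS) is a bacterial wall component and ATP given after it triggers the NLRP3 inflammasome. By the labels LPS lasted 4 hours and ATP 30 minutes, and by the study's methods 12 hours and 2 hours, so the length of stimulation is uncertain. The Nlrp3-/- mice lack the gene in every cell of the body, not only in macrophages. The study calls its replicates independent in general, but the sources used here do not say whether the 3 libraries of a group came from separate mice or from separate cultures, so a p-value measures the spread between these libraries.

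Interferon alpha and beta bind the receptor chains IFNAR1 and IFNAR2, whose kinases JAK1 and TYK2 activate transcription factors. These bind, together with IRF9, the interferon-stimulated response element in the promoters of target genes. In macrophages LPS itself starts the loop, because TLR4 signals through TRIF (gene Ticam1) and TBK1 to IRF3 and so to the interferon beta gene, and the secreted interferon acts back on the cells.

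The promoters are shown first because the members were listed for this shared control. A response element was searched as 2 copies of GAAA, or of TTTC on the other strand, set 2 bases apart, and overlapping matches were each counted. The search ran over the window from 250 bases before to 50 bases after each start site, with sequences from RefSeq on GRCm38.p6; the submitters' processing notes name GRCm39 for the reads. A window was at hand for 31 members and 16 of them held a match (51.6%), against 1079 of all 27025 genes with a window (3.99%). Rsad2, Isg15, Ifit1, Ifit3, Ifit3b and Oas3 are printed as the members with a match among those described most closely, each as the 200 bases before the start site, 5′ to 3′ on the gene's strand, with matches in capitals.
Rsad2, chr12:26456453-26456652, minus strand: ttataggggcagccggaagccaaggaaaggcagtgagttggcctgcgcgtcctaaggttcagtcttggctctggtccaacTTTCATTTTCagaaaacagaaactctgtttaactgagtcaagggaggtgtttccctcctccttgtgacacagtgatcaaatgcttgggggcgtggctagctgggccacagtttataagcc
Isg15, chr4:156200819-156201018, minus strand: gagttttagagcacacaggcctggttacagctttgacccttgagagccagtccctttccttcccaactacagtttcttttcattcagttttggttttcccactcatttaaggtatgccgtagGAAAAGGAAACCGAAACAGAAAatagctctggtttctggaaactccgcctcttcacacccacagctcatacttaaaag
Ifit1, chr19:34640689-34640888, plus strand: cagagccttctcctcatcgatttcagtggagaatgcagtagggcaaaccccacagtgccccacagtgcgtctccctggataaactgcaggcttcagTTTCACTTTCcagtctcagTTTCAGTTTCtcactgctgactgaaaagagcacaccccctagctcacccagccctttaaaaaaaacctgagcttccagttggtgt
Ifit3, chr19:34583329-34583528, plus strand: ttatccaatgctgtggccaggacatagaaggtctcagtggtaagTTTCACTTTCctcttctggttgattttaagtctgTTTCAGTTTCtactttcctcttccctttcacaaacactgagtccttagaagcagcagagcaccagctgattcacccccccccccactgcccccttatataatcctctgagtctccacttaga
Ifit3b, chr19:34607757-34607956, plus strand: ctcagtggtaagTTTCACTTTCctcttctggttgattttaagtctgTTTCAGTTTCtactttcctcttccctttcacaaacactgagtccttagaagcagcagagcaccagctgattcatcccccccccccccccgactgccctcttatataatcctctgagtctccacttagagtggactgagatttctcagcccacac
Oas3, chr5:120777660-120777859, minus strand: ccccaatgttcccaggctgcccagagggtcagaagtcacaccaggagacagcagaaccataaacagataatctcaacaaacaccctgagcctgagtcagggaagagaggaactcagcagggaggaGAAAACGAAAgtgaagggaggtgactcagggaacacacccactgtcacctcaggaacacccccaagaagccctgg
Isg15 held 3 overlapping matches in 1 run, and Ifit1, Ifit3 and Ifit3b held 2 separate ones each. Ifit3 and Ifit3b show the same stretch around both matches, set further from the start site in Ifit3b. The windows of Ifit2, Cmpk2 and Isg20 held no match to these letters, which says nothing of binding elsewhere. A match is a description of the sequence, not a measured site.

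Several facts of the libraries bear on every genotype comparison. Nlrp3 averaged 9.68 FPKM in wild-type control and 32.9 FPKM in wild-type LPS+ATP libraries and was listed at 0 in all 6 Nlrp3-/- libraries. FPKM counts fragments by gene length and library total, so levels of different genes can be set side by side. Xist averaged 53.8 and 33.4 FPKM in the Nlrp3-/- groups and the Y-linked Ddx3y was listed at 0 there, with the reverse in wild-type, so sex and genotype cannot be told apart. Nnt, which differs between C57BL/6 substrains, averaged 9.38 FPKM in wild-type control and 1.16 FPKM in Nlrp3-/- control. With LPS+ATP it averaged 4.23 against 0.893 FPKM. A difference of substrain, if there is one, cannot be told apart from genotype either. The macrophage markers Lyz2 and Cd68 averaged 18464 and 1450 FPKM in wild-type control, as the cell label says. The sum of 5 fibroblast markers was 155 to 159 FPKM in wild-type control and 1158 to 1175 FPKM in Nlrp3-/- control libraries, and 177 to 180 against 880.4 to 896 FPKM with LPS+ATP. The sum of 6 neutrophil markers was 230.4 to 263 against 1386 to 1429 FPKM in control and 306 to 318 against 619 to 621 FPKM with LPS+ATP. Of this sum Lcn2 alone averaged 9.96 against 43.2 FPKM in control and 218 against 208 FPKM with LPS+ATP. S100a8, S100a9, Mpo and Elane averaged lower with LPS+ATP than in control in both genotypes. Of 3 markers of plasmacytoid dendritic cells, the great interferon producers, Siglech averaged at most 0.049 and Ccr9 at most 0.127 FPKM in any group. The third, Tcf4, averaged 1.47 FPKM in wild-type control, 1.84 FPKM in Nlrp3-/- control and 1.44 FPKM in both LPS+ATP groups. The relative depth of the libraries ran from 1.0 to 1.22, the number of reads being unknown, and Pearson's r across genes was 0.990 to 0.993 within groups.

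Without stimulation the 40 genes were already transcribed at very different levels. Group means in wild-type control ran from 1.39 FPKM for Mx2 to 370.4 FPKM for Ifitm3, with a median of 11.6 FPKM. Ifitm3, which blocks fusion of virus membranes, Lgals3bp, a secreted glycoprotein at 199 FPKM, and Bst2, which tethers virus particles to the cell at 143 FPKM, were the most abundant. In wild-type BMDMs with LPS+ATP the range was 9.82 FPKM for Trim21 to 1015 FPKM for Ifitm3, with a median of 85.3 FPKM. Replicates lay close together, with a median coefficient of variation over the members of 6.56% in wild-type control and 2.11% with LPS+ATP. The heat map of all libraries shows stimulation as the main contrast among these genes.

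**Figure D1:**
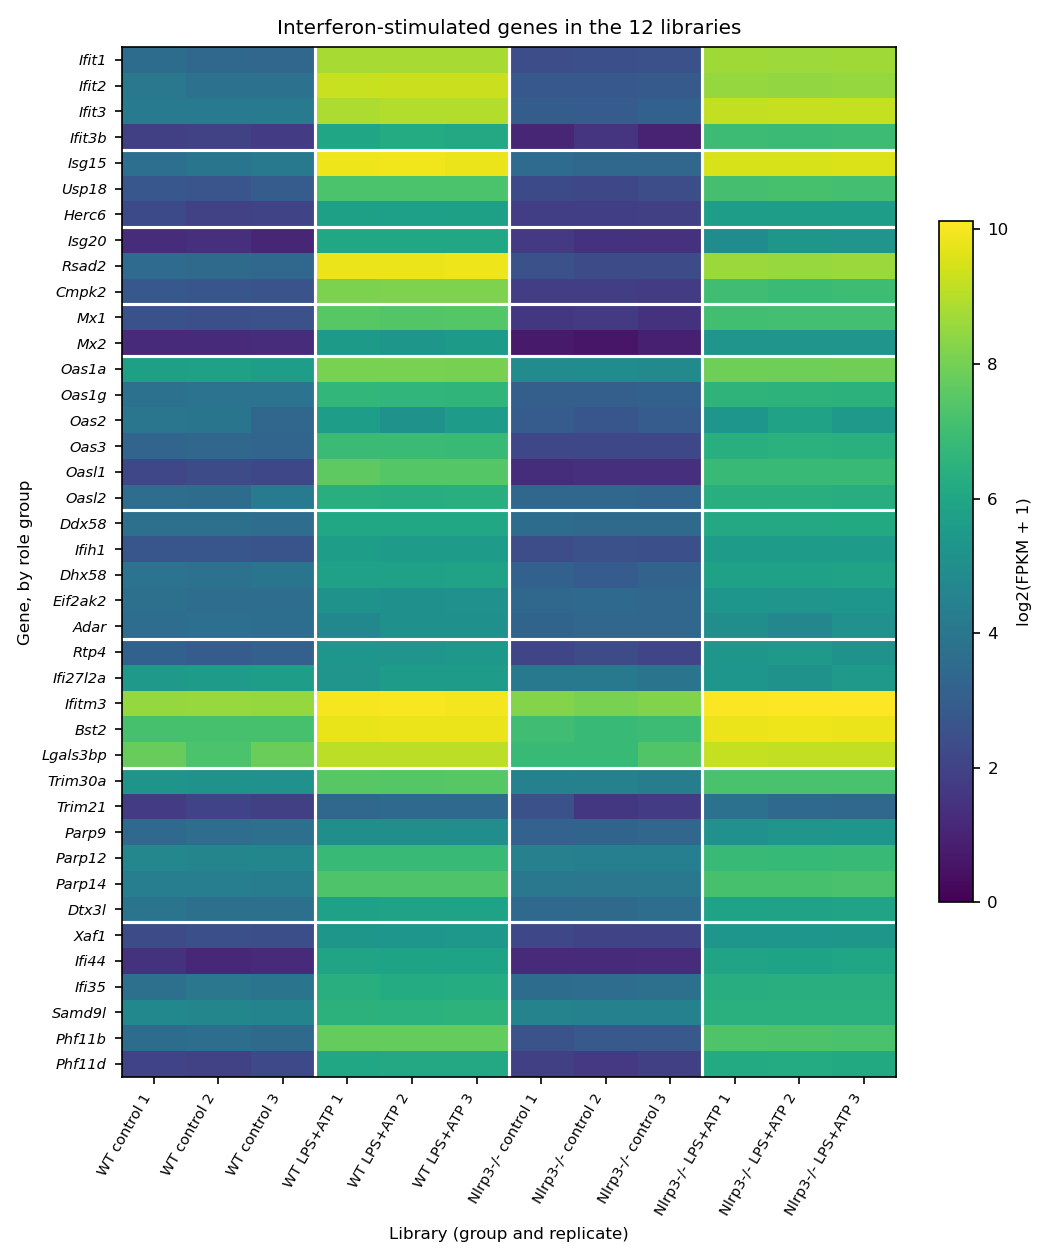
Heat map of log2(FPKM + 1) for the 40 interferon-stimulated genes (rows, white lines between role groups) in the 12 libraries (columns, 3 per group). The LPS+ATP columns are brighter than the control columns of the same genotype for nearly every gene, with medians of 85.3 and 11.6 FPKM in wild-type BMDMs.

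Stimulation with LPS+ATP raised nearly the whole set in both genotypes. Differences were tested with limma on log2(FPKM + 1), and a gene was called where its p, adjusted after Benjamini and Hochberg over all tested genes, was under 0.05 and its log2 fold change reached 1 or -1. In wild-type BMDMs 39 of 40 members rose and 0 fell, where 8.25% of all tested genes rose and 11.2% fell. In Nlrp3-/- BMDMs 40 of 40 rose and 0 fell, against 6.64% and 8.21% of all tested genes. The median log2 fold change of the members was 2.85 in wild-type and 3.14 in Nlrp3-/- BMDMs, and that of all tested genes was -0.26 and -0.24. As ratios of mean FPKM the medians were 7.94 and 10.7, and 17 members in wild-type and 21 in Nlrp3-/- BMDMs rose over 10-fold. The scale of FPKM + 1 understates the change of genes that start low. After median-ratio scaling of the libraries, the median of all tested genes moved by 0.25 (wild-type) and 0.23 (Nlrp3-/-), and calls among all genes turned from 1041 higher and 1411 lower to 1400 higher and 878 lower in wild-type, and from 838 and 1036 to 1094 and 605 in Nlrp3-/- BMDMs. The member counts stayed at 39 and 40.

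**Figure D2:**
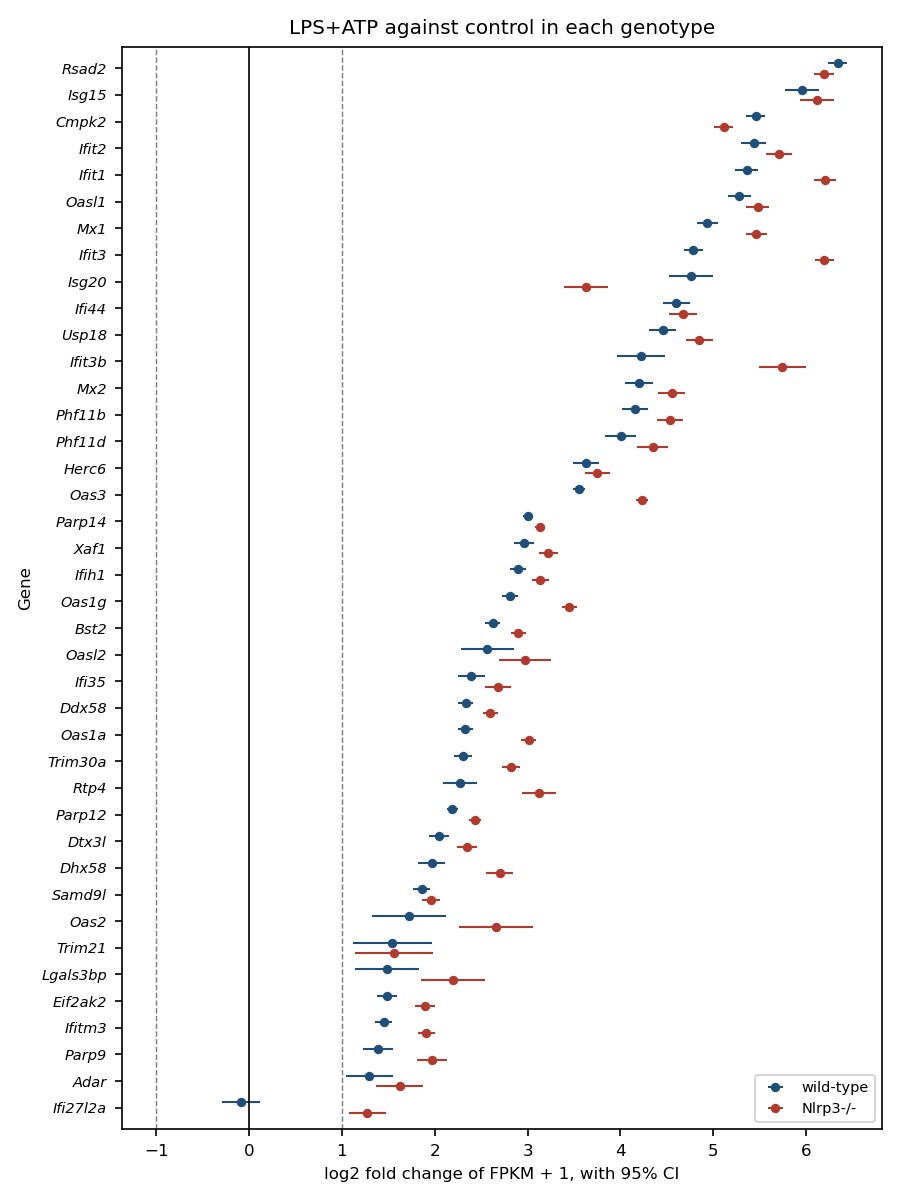
Log2 fold change of FPKM + 1 with LPS+ATP against control (x axis) for each of the 40 genes (y axis) in wild-type (blue) and Nlrp3-/- (red) BMDMs, with 95% confidence intervals from limma and dashed lines at the fold limit of 1. All points but that of Ifi27l2a in wild-type (-0.09) lie beyond 1, with Rsad2 highest in wild-type at 6.34.

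The IFIT genes, of which Ifit1 encodes a protein that binds foreign RNA without the host's methylated cap, stood among the strongest responders. All 4 rose in both genotypes, with log2 fold changes of 4.22 to 5.43 in wild-type and 5.71 to 6.20 in Nlrp3-/- BMDMs. Ifit1 was 11.0, 9.39 and 9.17 FPKM in the 3 wild-type control libraries and 447, 443 and 439.6 FPKM with LPS+ATP. In Nlrp3-/- BMDMs it was 4.31, 4.56 and 4.63 FPKM in control and 403, 398 and 411 FPKM with LPS+ATP. The genotypes did not overlap in either state. The ratio of Nlrp3-/- to wild-type means was 0.456 in control and 0.911 with LPS+ATP, and the latter difference did not pass (adjusted p = 0.06254 by limma). Ifit2 was 15.4, 12.6 and 12.6 FPKM in wild-type control and 617, 628 and 629 FPKM with LPS+ATP. Its Nlrp3-/- libraries held 5.88, 5.83 and 6.20 FPKM in control and 365, 357 and 367 FPKM with LPS+ATP, all below the wild-type libraries of the same state.

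Ifit3 took another course. It was 16.3, 17.1 and 16.3 FPKM in wild-type control and 461, 496 and 493 FPKM with LPS+ATP. In Nlrp3-/- BMDMs it went from 6.96, 6.74 and 7.73 FPKM to 584, 607 and 595 FPKM. The Nlrp3-/- libraries lay below wild-type in control and above wild-type with LPS+ATP. Ifit3b went from 2.74, 3.00 and 2.39 FPKM to 63.3, 72.8 and 67.8 FPKM in wild-type and from 1.13, 1.83 and 0.965 FPKM to 123, 119 and 122 FPKM in Nlrp3-/- BMDMs. It crossed in the same way. The longest transcripts of Ifit3 and Ifit3b match at 97.8% over 1700 bases, so the counting could have moved reads between them, and their values were also added together and tested as 1 gene, a choice made after the data were seen.

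The ubiquitin-like modifier Isg15 and its enzymes also rose in full. Isg15, which is joined to other proteins in infected cells, was 12.1, 14.4 and 16.0 FPKM in wild-type control and 925, 967 and 911 FPKM with LPS+ATP. Its Nlrp3-/- values were 10.7, 9.35 and 9.04 FPKM in control and 728, 728 and 765 FPKM with LPS+ATP, below wild-type in both states without overlap. Usp18, the protease that takes Isg15 off again and damps the receptor, had log2 fold changes of 4.46 (wild-type) and 4.85 (Nlrp3-/-). For Herc6, the ligase that attaches Isg15 in mice, the values were 3.63 and 3.75.

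Among the enzymes that act on nucleotides and nucleic acids, Rsad2 had the largest wild-type response of all members. Rsad2 encodes viperin, which turns CTP into a chain terminator for viral polymerases. Its values were 10.7, 10.4 and 9.50 FPKM in wild-type control and 896, 893 and 920.0 FPKM with LPS+ATP, an 88.7-fold rise of the mean. In Nlrp3-/- BMDMs they were 4.67, 4.14 and 4.08 FPKM and 389, 379 and 389 FPKM, an 89.7-fold rise from a lower start. Cmpk2, a mitochondrial nucleotide kinase on chromosome 12 like Rsad2, was 5.84, 5.50 and 5.06 FPKM in wild-type control and 281, 284 and 282 FPKM with LPS+ATP. Its Nlrp3-/- values were 2.66, 2.68 and 2.48 FPKM in control and 128, 119 and 124 FPKM with LPS+ATP. For both genes every Nlrp3-/- library was below every wild-type library of the same state.

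Isg20, an exonuclease that degrades RNA, rose less in the knockout. It was 1.45, 1.62 and 1.15 FPKM in wild-type control and 64.4, 63.5 and 63.7 FPKM with LPS+ATP, against 2.26, 1.83 and 1.73 FPKM and 29.5, 39.4 and 37.6 FPKM in Nlrp3-/- BMDMs. Nlrp3-/- libraries were thus all above wild-type in control and all below with LPS+ATP. Mx1 and Mx2, of the dynamin-like GTPase family, rose by log2 fold changes of 4.94 and 4.20 in wild-type and 5.46 and 4.55 in Nlrp3-/- BMDMs. Mx2 is annotated as a polymorphic pseudogene and matches Mx1 at 95.3% over 843 bases.

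The 6 oligoadenylate synthetase genes, all on chromosome 5, make the messenger that activates RNase L, apart from Oasl1, which lacks this activity. All 6 rose in both genotypes, with medians of 2.69 in wild-type and 3.23 in Nlrp3-/- BMDMs on the log2 scale. Oas3 was 8.90, 9.21 and 8.98 FPKM in wild-type control and 117, 118 and 115 FPKM with LPS+ATP. In Nlrp3-/- BMDMs it was 3.59, 3.57 and 3.62 FPKM in control and 83.5, 87.2 and 84.8 FPKM with LPS+ATP, below wild-type in both states. Oasl1 had the largest rise of the family, with log2 fold changes of 5.28 and 5.48. Oas1a and Oas1g match at 97.6% over 1861 bases, and added together they rose by 2.46 (wild-type) and 3.15 (Nlrp3-/-).

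The sensors of viral RNA rose less steeply. Ddx58 (RIG-I), Ifih1 (MDA5), Dhx58 (LGP2), Eif2ak2 (PKR) and the RNA-editing enzyme Adar had log2 fold changes of 1.29 (Adar) to 2.90 (Ifih1) in wild-type and 1.62 (Adar) to 3.14 (Ifih1) in Nlrp3-/- BMDMs, all 5 called in both. Exons of Adar overlap those of Chrnb2 on the other strand over 1365 bases, those of Parp9 and Dtx3l overlap over 458 bases, and use of strand in the counting is not given in the sources used here. Near copies are also annotated for Phf11b (Phf11a and Gm6904), Herc6 (Gm45193) and Isg15 (AC151275.1, listed at 0 in every library), so the values of Phf11b and Herc6 are uncertain. The 6 ubiquitin ligases and ADP-ribosyltransferases rose too, from 1.39 for Parp9 to 3.01 for Parp14 in wild-type BMDMs, and so did the 6 remaining members, from 1.86 for Samd9l to 4.60 for Ifi44.

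Ifi27l2a, a small hydrophobic membrane protein, was the exception among the membrane and secreted products. It was 43.4, 45.4 and 49.3 FPKM in wild-type control and 38.1, 45.6 and 46.5 FPKM with LPS+ATP, which overlap, and its difference of -0.09 on the log2 scale (standard error 0.09, adjusted p = 0.4056 by limma) did not pass. In Nlrp3-/- BMDMs it went from 15.9, 16.1 and 13.9 FPKM to 38.5, 34.8 and 42.2 FPKM, a log2 fold change of 1.28 (adjusted p = 2.046e-07 by limma). The genotypes lay apart in control and overlapped with LPS+ATP. The other 4 of this group rose in both genotypes, from 1.45 for Ifitm3 to 2.63 for Bst2 in wild-type BMDMs.

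**Figure D3:**
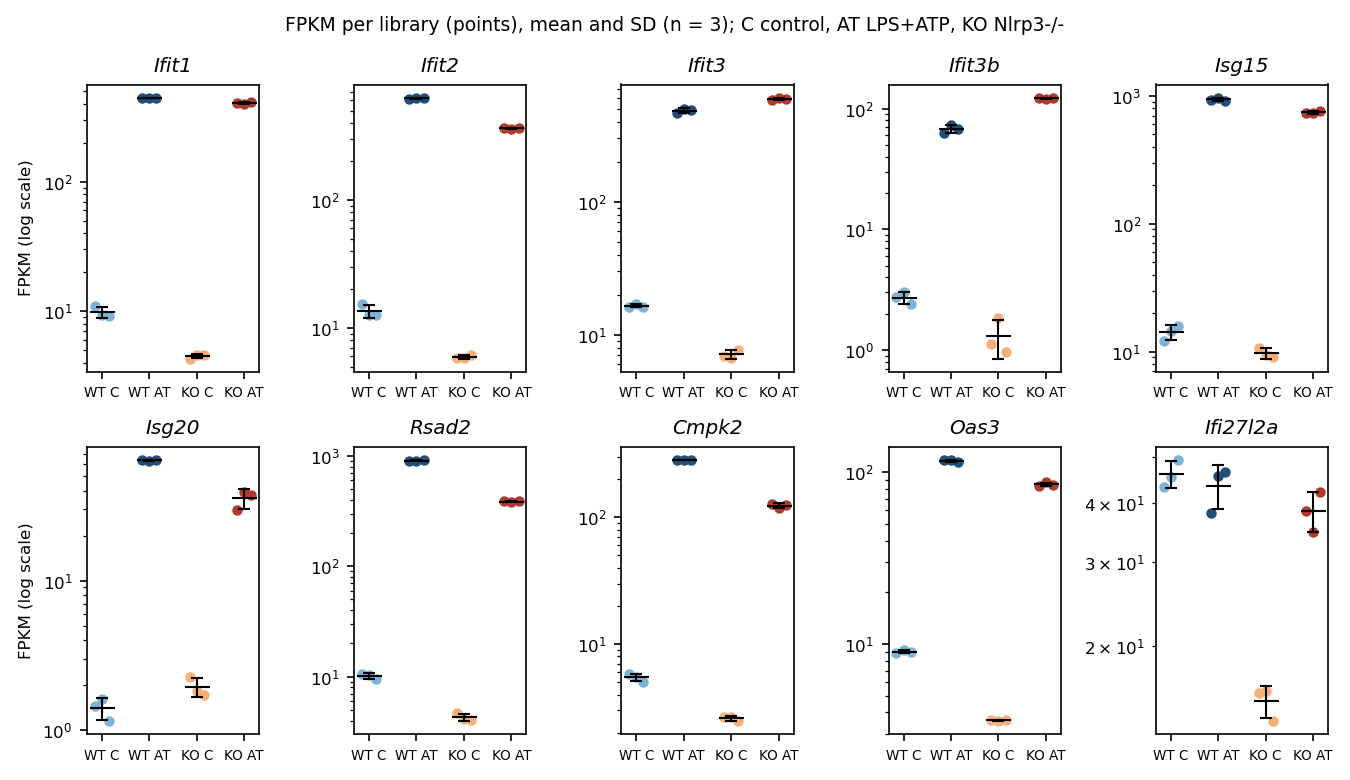
FPKM (log axis) of 10 members in each library (points) with the mean and SD of 3 libraries (black) for wild-type (WT) and Nlrp3-/- (KO) BMDMs in control (C) and with LPS+ATP (AT). Every gene but Ifi27l2a in WT rises with LPS+ATP, KO C lies below WT C except for Isg20, and KO AT lies above WT AT for Ifit3 and Ifit3b.

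In the resting state the set was lower in Nlrp3-/- than in wild-type BMDMs. The median log2 fold change was -0.51 for the members and 0.09 for all tested genes, and 38 of 40 members had a negative sign. With the fold limit 5 members fell and 0 rose, against 0.689% of all tested genes called lower and 6.02% called higher. At an adjusted p under 0.05 with no fold limit, 37 were lower, 1 was higher and 2 were neither, where 14.5% of all tested genes were lower and 33.3% higher. The 3 Nlrp3-/- libraries lay below all 3 wild-type libraries for 35 members, against 18.0% of all tested genes. The summed FPKM of the 40 members was 1136 to 1204 in wild-type control and 782 to 867 in Nlrp3-/- control libraries.

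The 5 that fell past the limit were Ifi27l2a (log2 fold change -1.53, standard error 0.09, adjusted p = 9.969e-08 by limma), Oas3 (-1.13, standard error 0.03, adjusted p = 1.116e-10), Ifit3 (-1.11, standard error 0.05, adjusted p = 5.995e-09), Rsad2 (-1.08, standard error 0.05, adjusted p = 9.647e-09) and Ifit2 (-1.06, standard error 0.06, adjusted p = 8.621e-08). As ratios of mean FPKM, Ifi27l2a stood at 0.332 and Rsad2 at 0.422 of wild-type. Ifit2 falls by 0.97 and passes the limit no more without wild-type control replicate 1. Ifit3 and Ifit3b added together fell by 1.10 (adjusted p = 1.769e-09 by limma). Just short of the limit lay Ifit1 at -0.98, Mx1 at -0.89, Oas2 at -0.88, Rtp4 at -0.87 and Oasl1 at -0.85, and all of these but Oas2 were among the 11 members called at a pseudocount of 0.1.

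By role, the IFIT genes had a median log2 difference of -1.02, the oligoadenylate synthetases -0.85 and the Mx pair -0.71, while the RNA sensors had -0.26 and the ubiquitin ligases and ADP-ribosyltransferases -0.27. All 4, 6, 2, 5 and 5 of 6 of them respectively were lower at an adjusted p under 0.05 by limma with no fold limit. Isg20 alone was higher (log2 fold change 0.29, adjusted p = 0.04626 by limma), with an adjusted p of 0.0141 to 0.182 over 22 alternatives, 14 of which did not reach 0.05. Trim21, a ubiquitin ligase that binds antibody in the cytosol, gave 0.10 (adjusted p = 0.7007 by limma), with Nlrp3-/- values of 4.76, 2.13 and 2.49 FPKM, of which the first stood apart. Ifi44 was the other member that did not pass (adjusted p = 0.6901).

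Markers of cell type moved with this comparison. The 7 macrophage markers had a median log2 fold change of -0.36, from -0.73 for Cd68 to 0.07 for Mertk, and 4 of 7 were lower at an adjusted p under 0.05. Of the 40 interferon-stimulated genes 16 lay below Cd68 and 23 below the marker median. The fibroblast and neutrophil marker sums given above were higher in the same Nlrp3-/- libraries. In bulk RNA, fewer macrophages and less RNA of a gene per macrophage cannot be told apart, and the part of cell makeup in the fall was not tested.

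With LPS+ATP the differences between genotypes centred near 0 for this set in FPKM as deposited. The median log2 fold change of Nlrp3-/- against wild-type was -0.03 for the members and 0.11 for all tested genes, with 25 negative and 15 positive signs. Past the fold limit 2 members fell and 0 rose, against 0.57% of all tested genes called lower and 4.48% called higher. With no fold limit 14 were lower, 4 were higher and 22 were neither, where 12.6% and 35.9% of all tested genes were lower and higher. The groups did not overlap for 18 members that were lower in Nlrp3-/- BMDMs and for 8 that were higher, against 16.2% and 41.7% of all tested genes. The signs of the small differences depend on scaling. After median-ratio scaling, which moved the median of all tested genes by -0.15, the member median was -0.21 and 37 of 40 were negative. Of these 40, 26 were lower and 1 was higher at an adjusted p under 0.05 with no fold limit. Upper-quartile scaling gave a member median of -0.14, with 35 negative, and 21 lower and 2 higher in this way.

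Rsad2 and Cmpk2 were the 2 members called. On the log2 scale Rsad2 differed by -1.23 (standard error 0.05, adjusted p = 4.577e-09 by limma) and Cmpk2 by -1.18 (standard error 0.05, adjusted p = 4.451e-09), with means at 0.427 and 0.439 of wild-type. Isg20 at -0.84, Ifit2 at -0.78 and Oasl1 at -0.65 followed, and Isg20 passes the limit after median-ratio scaling at -1.03. The 4 higher at an adjusted p under 0.05 were Ifit3b at 0.83, Ifit3 at 0.30, Parp9 at 0.26 and Eif2ak2. Eif2ak2 had means of 34.1 and 38.2 FPKM and missed 0.05 in 6 of 22 alternatives. After median-ratio scaling Ifit3b was the 1 that remained. The order of levels changed with genotype, since Rsad2 at a mean of 903 FPKM in wild-type BMDMs came after Ifitm3 and Isg15 only, with Bst2 near it at 888 FPKM, and at 386 FPKM in Nlrp3-/- BMDMs it lay below Ifit3 and Lgals3bp at 595 and 589 FPKM. The summed FPKM of the members was 8822 to 8924 in wild-type and 7623 to 7740 in Nlrp3-/- libraries. The 7 macrophage markers had a median of -0.17 here, from -0.71 for Fcgr1 to -0.02 for Csf1r.

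**Figure D4:**
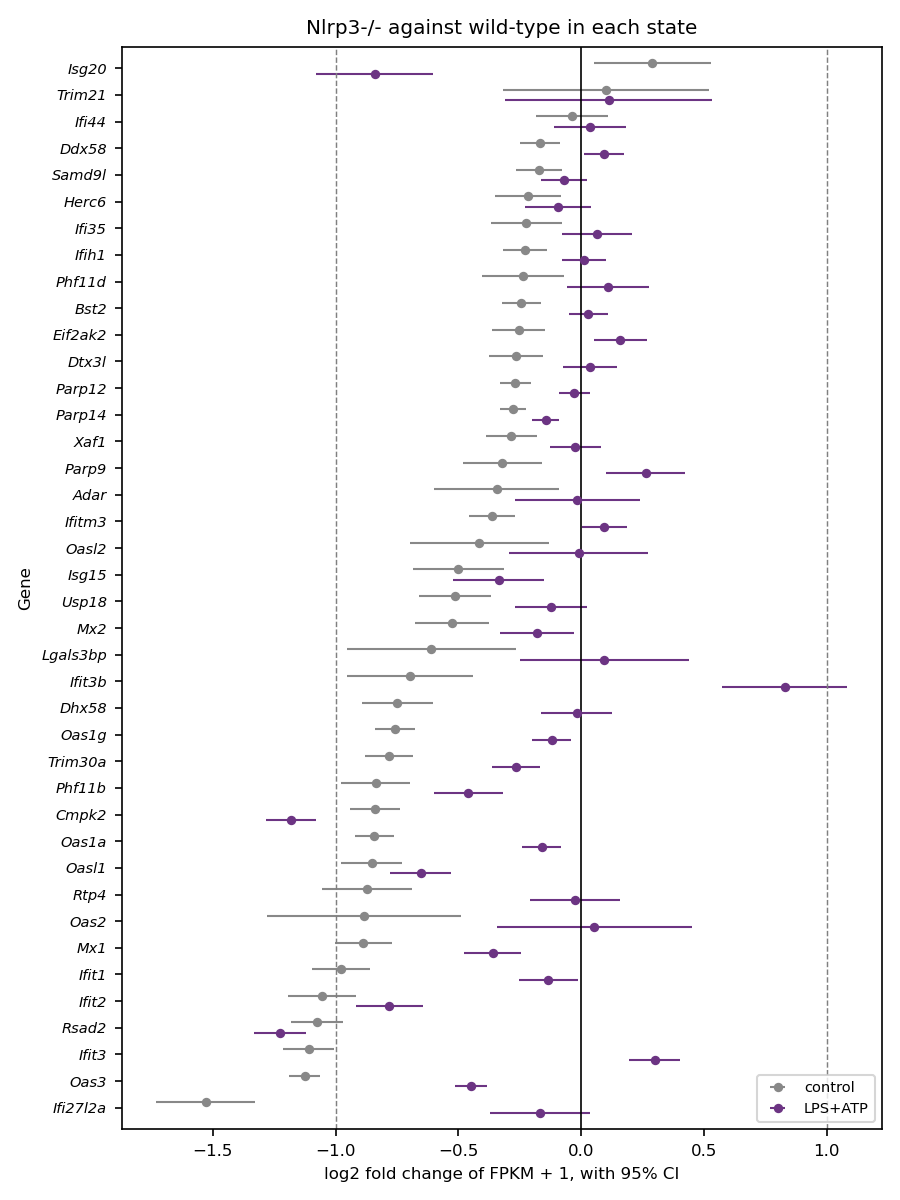
Log2 fold change of FPKM + 1 in Nlrp3-/- against wild-type BMDMs (x axis) for the 40 genes (y axis) in control (grey) and with LPS+ATP (purple), with 95% confidence intervals from limma and dashed lines at the fold limit of 1. In control 38 points lie left of 0, while with LPS+ATP most lie near 0 except those of Rsad2 (-1.23), Cmpk2 (-1.18), Isg20 (-0.84), Ifit2 (-0.78) and Ifit3b (0.83).

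The change of the genotype difference with stimulation was tested as an interaction term, which is positive where the response was larger in Nlrp3-/- BMDMs. The term uses the same 12 libraries as the comparisons above and is not independent of them. Past the fold limit it was positive for 3 members and negative for 1, against 0.721% and 1.43% of all tested genes. With no fold limit 29 were positive, 2 negative and 9 neither, where 14.7% of all tested genes were positive and 13.0% negative. The median was 0.35 for the members and 0.02 for all tested genes. After upper-quartile scaling and after median-ratio scaling 23 members were positive and 3 negative with no fold limit. The member medians were then 0.28 and 0.27.

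The positive terms past the limit were those of Ifit3b (1.53, standard error 0.16, adjusted p = 5.104e-05 by limma), Ifit3 (1.41, standard error 0.07, adjusted p = 1.379e-07) and Ifi27l2a (1.36, standard error 0.13, adjusted p = 2.118e-05). Added together, Ifit3 and Ifit3b gave 1.48 (standard error 0.06, adjusted p = 3.795e-08 by limma). The negative one was that of Isg20 (-1.13, standard error 0.15, adjusted p = 0.0002679 by limma), and Cmpk2 was the other negative term with an adjusted p under 0.05, at -0.34. Rsad2, lower in Nlrp3-/- BMDMs in both states, had a term of -0.15 with a 95% confidence interval given by limma of -0.30 to 0.00 (adjusted p = 0.1362). Ifit1 at 0.84, Rtp4 at 0.85, Dhx58 at 0.73, Oas1a at 0.68 and Oas3 at 0.68 had positive terms under the fold limit. The macrophage marker Csf1r had a term of 0.60, Fcgr1 one of -0.31, and the median of the 7 was 0.04. Of the 40 members, 11 lay above Csf1r. The 5 tested neutrophil markers had a median term of -2.08, from -3.58 for Mpo to -0.03 for S100a9.

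Upstream of these genes, the interferons themselves were close to undetected. Of 18 type I interferon genes listed by the authors 12 were listed at 0 in all 12 libraries, and none passed the filter. Ifnb1, the interferon beta gene, was listed at 0 in wild-type control and averaged 0.469 FPKM with LPS+ATP, against 0.0342 and 0.702 FPKM in Nlrp3-/- BMDMs. The 2 receptor chains and the 2 kinases were called in 0 of 5 comparisons. Among the transcription factors, Stat2 rose by log2 fold changes of 2.25 in wild-type and 2.58 in Nlrp3-/- BMDMs, and Irf1 by 2.74 and 1.89. Irf7, which amplifies interferon production, rose by 4.30 and 4.90 and in control differed between genotypes by -0.90 (adjusted p = 4.422e-09 by limma). Irf9 differed by -0.44 and Stat2 by -0.47 in control, both at an adjusted p under 0.05 with no fold limit. Of the 8 genes of the LPS route to interferon, Cd14 rose in both genotypes, at 2.25 and 2.48, and Ikbke passed the limit in Nlrp3-/- BMDMs. At an adjusted p under 0.05 with no fold limit, 3 of the 8 were lower and 0 higher in Nlrp3-/- control BMDMs. With LPS+ATP 3 were lower and 1 was higher. Of all tested genes 14.5% were lower and 33.3% higher in control, and 12.6% and 35.9% with LPS+ATP. Ticam1 differed by -0.41 in control and -0.52 with LPS+ATP, and Tbk1 by -0.29 with LPS+ATP.

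The guanylate-binding proteins and immunity-related GTPases, which answer strongly to interferon gamma, give a side by side view. In control BMDMs the 10 tested guanylate-binding proteins had a median genotype difference of 0.07 and a range of -0.24 to 0.65, with 4 higher and 2 lower at an adjusted p under 0.05 by limma with no fold limit, beside 33.3% higher and 14.5% lower among all tested genes. The 40 interferon-stimulated genes had 1 higher and 37 lower. With stimulation 9 of the 10 rose in each genotype. All 8 immunity-related GTPases rose in both, and in control 3 were higher and 4 lower in Nlrp3-/- BMDMs at an adjusted p under 0.05 with no fold limit, beside the same shares of all tested genes. Tgtp2 was called higher in control at 1.05, though at 0.90 after median-ratio scaling and 0.99 without wild-type control replicate 1 it was under the limit, and Igtp with LPS+ATP at 1.25. Of the immunity-related GTPases only Igtp, Tgtp2 and Ifi47 were looked up by position, and they lie on chromosome 11, as Nlrp3 does. So do the members Dhx58, Xaf1, Ifi35 and Lgals3bp. Positions of the other immunity-related GTPases, among them those lower in control, were not looked up. The difference between the families was not tested.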

How the data were processed

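RNA of 12 BMDM libraries was measured, extracted with TRIzol. The authors deposited 1 table of FPKM per gene and library. The processing notes name GRCm39 and DESeq2 1.24.0, which left no counts here, and the aligner, counter and annotation are not given in the sources used here. No columns were unused. FPKM holds no read numbers, so no counting interval can be given. Genes at 1 FPKM or more in at least 3 libraries entered limma 3.58.1 in R 4.3.3 as log2(FPKM + 1), with 4 group means in 1 fit and a variance trend, and p-values were adjusted over all 12622 genes. On simulated data for this fit, 195 of 200 genes changed by 1.5 (log2) among 12622 were called, with 0 false calls. The fold limit applied there and the other genes were drawn with no difference. It therefore does not check counts with no fold limit or smaller changes. Tables and figures used Python 3.11.15. Itgam stands on 2 rows, of which the first was tested. Positions, near copies and overlaps came from GENCODE M21 (GRCm38) and promoters from RefSeq. Members and lists were chosen with earlier results of these data known. Values per library are given for members called in a genotype or interaction comparison and for the 5 with the largest stimulation change in either genotype. Alternatives were other pseudocounts, filters, scalings and variance models, no fold limit, a replicate block and leaving out each library. Some values of 1 further gene are not reported here.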

Additional observations from a re-analysis of the deposited data

Results flagged for a closer look

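The response to LPS+ATP differed between genotypes, by the interaction term of limma past the fold limit, for 4 members. The term was 1.41 for Ifit3 and 1.53 for Ifit3b, which are near copies of each other and gave 1.48 when added together. It was 1.36 for Ifi27l2a, whose 3 Nlrp3-/- control libraries lay below all others. It was -1.13 for Isg20. Sex, a possible difference of substrain and genotype cannot be told apart in these terms.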

How the results depend on the processing

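Calls for stimulation stayed at 39 and 40 members in every setting. Of the members called between genotypes in control, 5 with the limits used, there were 38 with no fold limit, 11 at a pseudocount of 0.1, 8 at a pseudocount of 0.5, and 8 with TPM scaling, and 4 to 7 with each library left out in turn. With LPS+ATP 2 became 18 with no fold limit, and for the interaction 4 became 31, with 2 and 4 to 5 when libraries were left out. The interaction had 6 members called at a pseudocount of 0.1 and 5 with TPM scaling. A replicate block left the calls at 39, 40, 5, 2 and 4. Same-numbered libraries correlated in their deviations from the group means by -0.06 to 0.05, so they showed no shared deviation. This cannot tell whether they share a mouse or culture, and no paired result is given. The sign of Ifi27l2a with stimulation in wild-type turned to 0.0845 after upper-quartile scaling, 0.24 after median-ratio scaling and 0.0023 without wild-type LPS+ATP replicate 1, the range over libraries left out being -0.138 to 0.0023. That of Trim21 between genotypes in control turned to -0.012 after median-ratio scaling and -0.17 without Nlrp3-/- control replicate 1, the range being -0.17 to 0.273. Of 4878 recomputations of 223 single values, 4834 kept direction and side of the threshold, 35 passed it newly, 4 dropped below it and 5 turned sign. The 223 were a chosen part of the values, so signs turned elsewhere too. Eif2ak2 between genotypes with LPS+ATP, not among them, ran from -0.0266 to 0.186 over 22 alternatives. In that comparison 15 members were positive in the main fit and 3 after median-ratio scaling. The cause of these changes was not tested. The read depth is unknown, so low genes such as Mx2 and Ifit3b in control rest on few fragments, of unknown number.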
